A study of Homo sapiens with 30 samples.

Results

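The genes described here are 40 genes of glycolysis and of the response to low oxygen, found by their symbols among the 57373 genes of an RNA-seq count table from U2OS cells. All 40 were present. They were sorted by role into 17 glycolytic enzymes, 4 glucose and lactate transporters and 5 kinases that regulate glycolysis or the use of pyruvate. The others were 12 genes outside glycolysis that are known to be induced by hypoxia-inducible factor (HIF), and 2 HIF alpha subunits, HIF1A and EPAS1. U2OS is an established human osteosarcoma line. Cells were mock-transfected (mock), or received 500 ng of plasmid DNA coding for FOXP2, either wild-type (WT FOXP2) or without residues 264 to 272 (dhelix FOXP2), and RNA was taken 48 h later. Each of these was also studied in cells given 5 µM CHIR99021 (CHIR) from 72 h before transfection, which makes 6 groups of 5 biological replicates. CHIR99021 inhibits glycogen synthase kinase 3 and is used to activate Wnt signalling. FOXP2 is a forkhead transcription factor. No label states that mock cells got an empty plasmid or that untreated cells got the drug's solvent, so FOXP2 and plasmid DNA, and CHIR and its solvent, cannot be told apart. The labels name no reduced-oxygen treatment.

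Glycolysis splits glucose into pyruvate. Hexokinase traps glucose in the cell, phosphofructokinase commits it to the pathway, and lactate dehydrogenase turns the pyruvate into lactate, which leaves through monocarboxylate transporters. HIF is a pair of proteins, an alpha and a beta subunit. With oxygen the alpha subunit is hydroxylated by the EGLN enzymes and destroyed, and without oxygen it persists and binds DNA at the core letters ACGTG or GCGTG near genes for glycolytic enzymes, blood vessel growth and mitophagy. HIF activity is set largely at the protein, which RNA counts do not measure. Many tumour lines run glycolysis at a high rate with oxygen present.

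Levels are in CPM, counts per 1000000 on library sizes scaled by trimmed means of M values, and a value after ± is the SD over the 5 libraries of a group. A log2 fold change is followed by its standard error. The words rose and fell are kept for genes with an adjusted p below 0.05 in edgeR's quasi-likelihood test with Benjamini-Hochberg adjustment over the 18485 genes tested, and the same test underlies every adjusted p given here. CA9, the HIF-induced carbonic anhydrase, did not pass the filter on low counts and was not tested, which left 39 genes. Its level was 0.681, 0.588, 0.429, 0.417 and 0.634 CPM in mock and no higher than 0.338 CPM in any library of the other groups.

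Libraries held 15755842 to 29466652 counts. The common biological coefficient of variation that edgeR estimated, which leaves out counting noise, was 5.62%. The FOXP2 labels matched the RNA: FOXP2 was at 0.898 CPM in mock and 0.504 with CHIR, and at 7076 CPM with WT, 5319 with dhelix, 15299 with WT and CHIR and 13481 with dhelix and CHIR. These counts do not separate plasmid from endogenous transcripts, and the groups differed in the amount of FOXP2 RNA as well as in the construct. AXIN2, a target of Wnt signalling, rose with CHIR from 21 to 145 CPM. The labels call the cells epithelial. Of the osteoblast and mesenchymal markers, SPARC, VIM, COL1A1, CDH2 and RUNX2 stood at 2006, 1968, 1308, 162 and 58.3 CPM in mock, ALPL at 3.19, and COL1A2, SP7, BGLAP and TWIST1 at 0.222 or less, below the filter. Of the epithelial markers, KRT8, KRT18, KRT14 and CLDN4 stood at 199, 169.5, 24.8 and 19.1 CPM, EPCAM at 6.71, and KRT5, CDH1 and KRT19 at 0.622 or less, KRT19 below the filter. CHIR replicate 1, dhelix replicate 5 and WT FOXP2 with CHIR replicate 4 stood apart from their groups over all genes. Leaving out these 3 libraries moved none of the 468 log2 values below by more than 0.153. In whole-culture RNA, fewer cells of a kind and less RNA per cell cannot be told apart.

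The upstream sequence of 4 genes shows what the HIF core letters look like in this set: the enzyme and the HIF-induced gene that rose most (HK2 and BNIP3), the enzyme that fell most (ALDOC), and a HIF-induced gene that fell with CHIR (P4HA1). Each run is the 250 bases before a RefSeq transcription start on GRCh38.p14, read 5′ to 3′ on the gene's strand. HK2 has 2 such starts, and the first listed was used. ACGTG or GCGTG is in capitals on either strand, where the other strand reads CACGT or CACGC. The runs lie at chr2:74833877-74834126 on the plus strand for HK2 and, on the minus strand, at chr10:131981924-131982173 for BNIP3, chr17:28576896-28577145 for ALDOC and chr10:73096867-73097116 for P4HA1.
HK2: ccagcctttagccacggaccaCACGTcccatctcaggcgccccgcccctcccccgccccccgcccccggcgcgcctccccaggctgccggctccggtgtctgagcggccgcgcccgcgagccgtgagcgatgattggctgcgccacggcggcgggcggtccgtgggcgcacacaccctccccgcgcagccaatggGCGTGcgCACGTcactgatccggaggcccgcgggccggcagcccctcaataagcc
BNIP3: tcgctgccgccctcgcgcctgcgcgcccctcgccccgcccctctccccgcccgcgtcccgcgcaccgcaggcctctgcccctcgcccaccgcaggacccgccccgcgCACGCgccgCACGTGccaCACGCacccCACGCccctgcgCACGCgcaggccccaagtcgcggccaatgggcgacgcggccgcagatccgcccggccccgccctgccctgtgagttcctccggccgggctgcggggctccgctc
ALDOC: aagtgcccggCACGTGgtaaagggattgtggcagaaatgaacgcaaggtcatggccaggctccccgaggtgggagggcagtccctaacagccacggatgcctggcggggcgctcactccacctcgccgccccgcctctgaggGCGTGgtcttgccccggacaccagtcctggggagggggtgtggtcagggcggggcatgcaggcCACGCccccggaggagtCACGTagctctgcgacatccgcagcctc
P4HA1: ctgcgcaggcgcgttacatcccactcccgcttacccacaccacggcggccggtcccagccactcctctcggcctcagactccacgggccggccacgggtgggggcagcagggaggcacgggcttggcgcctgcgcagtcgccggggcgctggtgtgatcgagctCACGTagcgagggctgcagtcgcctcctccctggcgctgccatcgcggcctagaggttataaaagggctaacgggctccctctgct
HK2 held 3 matches, BNIP3 6, ALDOC 5 and P4HA1 1, with the palindrome CACGTG, which is also the E-box of other factors, read once on each strand. The gene that rose and the gene that fell most among the enzymes thus both carried the letters. Of the RefSeq promoters of the HIF-induced genes, 8 of 10 held ACGTG or GCGTG in this window, and of those of the enzymes 19 of 37 (some genes have several starts). The share over all promoters was 43.2%, or 15172 of 35116. A match is only a run of letters, and no binding was measured. SLC2A3, SLC16A1, PFKFB2, VEGFA, BNIP3L and NDRG1 had no entry.

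Each treatment on its own raised more of these genes than it lowered. With CHIR alone 21 of 39 rose and 10 fell, where 38.8% of all tested genes rose and 35.3% fell. With WT FOXP2 26 rose and 11 fell, against 39.9% and 41.6% of all genes, and with dhelix FOXP2 27 rose and 9 fell, against 39.6% and 40.9%. The median log2 fold change of the 39 genes was 0.084 with CHIR, 0.44 with WT and 0.35 with dhelix, and that of all tested genes was 0.023, -0.021 and -0.015. The 3 comparisons share the mock libraries. Changes of at least 2-fold were fewer: 4 up and 4 down with CHIR (9% and 13% of all genes), 6 up and 3 down with WT (13.4% and 19.2%), and 8 up and 3 down with dhelix (12.8% and 16.7%).

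The enzymes carried most of the rises and the HIF-induced genes were divided. Of the 17 enzymes, 12 rose and 2 fell with CHIR, 14 rose and 3 fell with WT, and 14 rose and 2 fell with dhelix, with medians of 0.23, 0.44 and 0.35. Of the 11 HIF-induced genes that could be tested, 5 rose and 3 fell with CHIR, 6 rose and 4 fell with WT, and 6 rose and 3 fell with dhelix, with medians of -0.012, 0.11 and 0.27. Library by library, the median enzyme stood 0.39 to 0.52 above its mock mean on the log2 scale with WT and 0.33 to 0.38 with dhelix. The median HIF-induced gene stood 0.0048 to 0.21 with WT and 0.22 to 0.30 with dhelix. The ranges of these 2 roles did not overlap in either group. With CHIR they did: 0.066 to 0.34 for the enzymes and -0.040 to 0.21 for the HIF-induced genes. With dhelix and CHIR together the order was the other way, at 0.42 to 0.49 for the enzymes and 0.54 to 0.66 for the HIF-induced genes, and with WT and CHIR it was 0.30 to 0.38 and 0.50 to 0.65. No test was made of these medians, which rest on genes chosen with results of these data known.

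**Figure D1:**
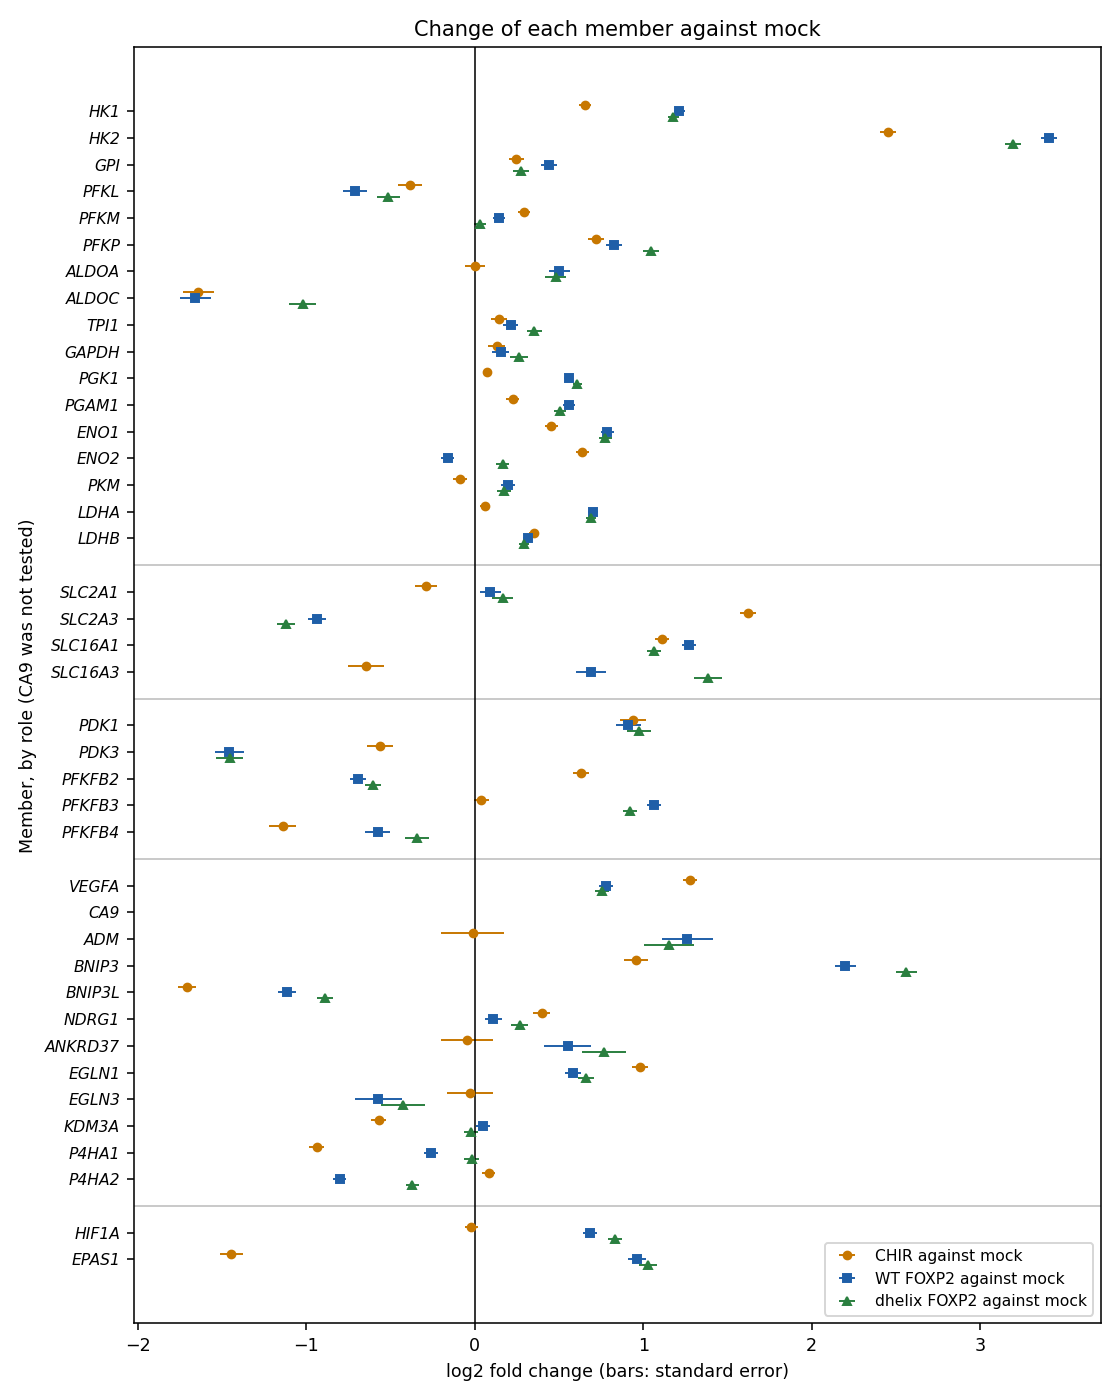
Log2 fold change against mock (horizontal axis) of each gene, by role, with CHIR (circles), WT FOXP2 (squares) and dhelix FOXP2 (triangles); bars are standard errors and horizontal lines part the roles. HK2 stands farthest to the right, at 2.45, 3.41 and 3.19, most enzymes lie between 0 and 1, and the genes outside glycolysis spread to both sides.

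**Figure D2:**
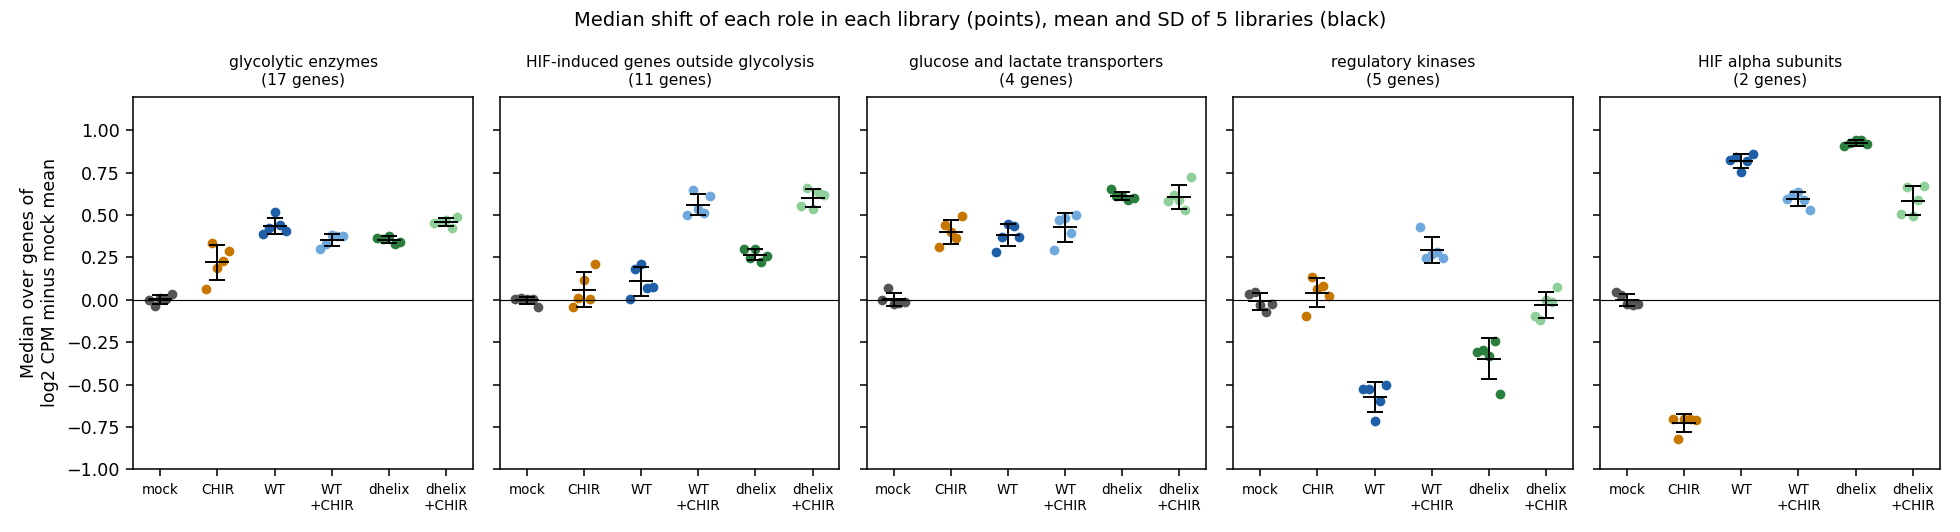
Median over the genes of a role of log2 CPM minus the mock mean (vertical axis), 1 point per library in each of the 6 groups, with the mean and SD of 5 libraries in black. With both agents the median of the HIF-induced genes lies above that of the enzymes. The HIF alpha median, over only 2 genes, is below 0 with CHIR alone and above 0 in the 4 groups with FOXP2. With CHIR alone the log2 fold change was -1.45 for EPAS1 and -0.020 for HIF1A.

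HK2, the inducible hexokinase that binds mitochondria, changed most. Its level was 18.7, 16.3, 18.3, 18.9 and 17.7 CPM in mock and 104, 99.6, 97.1, 101 and 90.2 with CHIR. It was 182, 192, 191, 194 and 196 CPM with WT FOXP2 and 164, 168, 164, 163 and 164 with dhelix. All libraries with CHIR lay above all mock libraries, and all libraries with FOXP2 lay above those with CHIR alone. HK2 rose 5.48-fold with CHIR (log2 2.45 ± 0.047, edgeR adjusted p = 1.23e-32), 10.6-fold with WT (log2 3.41 ± 0.047, adjusted p = 3.52e-37) and 9.15-fold with dhelix (log2 3.19 ± 0.047, adjusted p = 2.53e-36). With both agents it reached 191, 183, 196, 186 and 184 CPM (WT) and 173, 189.7, 190.1, 175 and 202 CPM (dhelix); the first overlapped WT alone and the second lay above dhelix alone. HK1, the hexokinase of most tissues, rose less: from 153 ± 4.21 CPM in mock to 241 ± 8.37 with CHIR, 355 ± 6.32 with WT and 347 ± 8.72 with dhelix. Its log2 changes were 0.65 ± 0.034, 1.21 ± 0.034 and 1.18 ± 0.034, and it stood highest with both agents, at 397 ± 7.33 and 418 ± 24 CPM. Per kilobase of exon, HK2 was 10.9% ± 0.50 (SD) of the sum of HK1 and HK2 in mock, 29.8% ± 1.7 with CHIR, 35.8% ± 0.57 with WT and 33% ± 0.76 with dhelix.

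Phosphofructokinase changed in makeup. PFKP, the platelet type, rose from 73.4 ± 2.0 CPM in mock to 121 ± 11.2 with CHIR (log2 0.72 ± 0.048), 130.0 ± 5.98 with WT (0.83 ± 0.048) and 151 ± 1.61 with dhelix (1.05 ± 0.047). PFKL, the liver type, fell from 186 ± 8.33 CPM to 142 ± 22.7, 114 ± 3.54 and 130.2 ± 6.47, by log2 -0.38 ± 0.070, -0.71 ± 0.070 and -0.51 ± 0.069. PFKM, the muscle type, rose with CHIR (0.29 ± 0.036) and WT (0.15 ± 0.036) and was at 0.031 ± 0.036 with dhelix. The share of PFKP in the 3 genes' CPM per kilobase was 30.5% in mock, 43.2% with CHIR, 49% with WT, 52.3% with dhelix, and 56.7% and 56.9% with both agents. These shares are descriptions and use the exon lengths of another build's annotation. A gene's length was that of all its annotated exons joined: 8926 bases for PFKL, 7318 for PFKM and 4836 for PFKP. Such lengths can exceed that of the main transcript, so which gene held the larger share depends on them. The shares are better compared between groups than between genes.

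The aldolases moved apart. ALDOC, the brain-type aldolase, was at 9.58, 9.94, 8.94, 9.12 and 8.77 CPM in mock and 2.05, 3.23, 3.16, 3.10 and 3.39 with CHIR. It was at 3.44, 2.99, 2.75, 2.93 and 2.66 CPM with WT and 4.89, 4.31, 4.20, 4.92 and 4.50 with dhelix. No library of these groups reached the lowest mock library. ALDOC fell 3.12-fold with CHIR (log2 -1.64 ± 0.092, edgeR adjusted p = 2.83e-18), 3.15-fold with WT (-1.66 ± 0.090) and 2.03-fold with dhelix (-1.02 ± 0.080). ALDOA, the main aldolase of these cells at 639 ± 20.4 CPM in mock, rose with WT (0.50 ± 0.060) and dhelix (0.48 ± 0.060) and was at 0.0036 ± 0.060 with CHIR. In CHIR replicate 1 ALDOA was at 484 CPM and in the other 4 CHIR libraries at 628 to 715, and the value was 0.053 (adjusted p = 0.208) without the 3 libraries that stood apart. ALDOC was only 1.91% of aldolase CPM per kilobase in mock, so its fall hardly touched the aldolase sum.

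The other enzymes, apart from lactate dehydrogenase, changed by less than 2-fold and mostly upward. GAPDH, the most abundant of the 40 genes per kilobase, rose by log2 0.13 ± 0.051, 0.15 ± 0.051 and 0.26 ± 0.051 with CHIR, WT and dhelix. CHIR replicate 1 lay at 5401 CPM, below all mock libraries, while the other 4 CHIR libraries lay above them. ENO1, the main enolase, rose from 1874 ± 44.4 CPM to 2566 ± 236 with CHIR, 3235 ± 78.3 with WT and 3205 ± 68.6 with dhelix (log2 0.45 ± 0.039, 0.79 ± 0.039 and 0.77 ± 0.039). ENO2, the neuronal enolase, rose with CHIR (0.64 ± 0.038), fell with WT (-0.16 ± 0.038) and rose with dhelix (0.17 ± 0.038). PGK1, which yields the first ATP of the pathway, rose with WT (0.56 ± 0.025) and dhelix (0.61 ± 0.025) and by only 0.074 ± 0.025 with CHIR, a call that was lost without the 3 libraries that stood apart. PGAM1, the mutase, rose in all 3 comparisons (0.23 ± 0.038, 0.56 ± 0.038 and 0.51 ± 0.038). GPI and TPI1, both isomerases, rose by 0.25 and 0.14 with CHIR, 0.44 and 0.21 with WT and 0.27 and 0.35 with dhelix. In CHIR replicate 1 GPI (254 CPM) and TPI1 (745 CPM) lay below all mock libraries, while the other 4 CHIR libraries lay above them. PKM, pyruvate kinase, rose with WT (0.20 ± 0.042) and dhelix (0.17 ± 0.042) and was at -0.086 ± 0.042 with CHIR. Without the 3 libraries that stood apart PKM fell with CHIR (-0.059, adjusted p = 0.0289), and CHIR replicate 1 lay at 2253 CPM, below all mock libraries of PKM. Together the 17 enzymes took 1.69% ± 0.040 (SD, n = 5) of all counts in mock, 1.75% ± 0.16 with CHIR, 1.92% ± 0.048 with WT and 2.04% ± 0.036 with dhelix.

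LDHA, the lactate dehydrogenase subunit that HIF induces, was at 857, 886, 883, 871 and 892 CPM in mock and 1476, 1435, 1405, 1407 and 1425 with WT. With dhelix it was at 1451, 1375, 1408, 1425 and 1422 CPM and with CHIR at 957, 915, 861, 899 and 941. The CHIR libraries overlapped mock and the FOXP2 libraries did not. LDHA rose with WT (log2 0.70 ± 0.030, edgeR adjusted p = 2.19e-22) and dhelix (0.69 ± 0.030). It did not pass with CHIR (log2 0.059 ± 0.030, edgeR adjusted p = 0.0695). Without the 3 libraries that stood apart its log2 value with CHIR was 0.0061. LDHB, the heart-type subunit, rose in all 3 comparisons (0.35 ± 0.029, 0.31 ± 0.029 and 0.29 ± 0.028). LDHB was 66.9% of the pair per kilobase in mock, 71.2% with CHIR, 60.7% with WT and 60.5% with dhelix. These shares rest on joined exon lengths of 6210 bases for LDHA and 2983 for LDHB. Before division by length, LDHB was at 838, 849, 868, 834 and 872 CPM in mock, near LDHA.

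**Figure D3:**
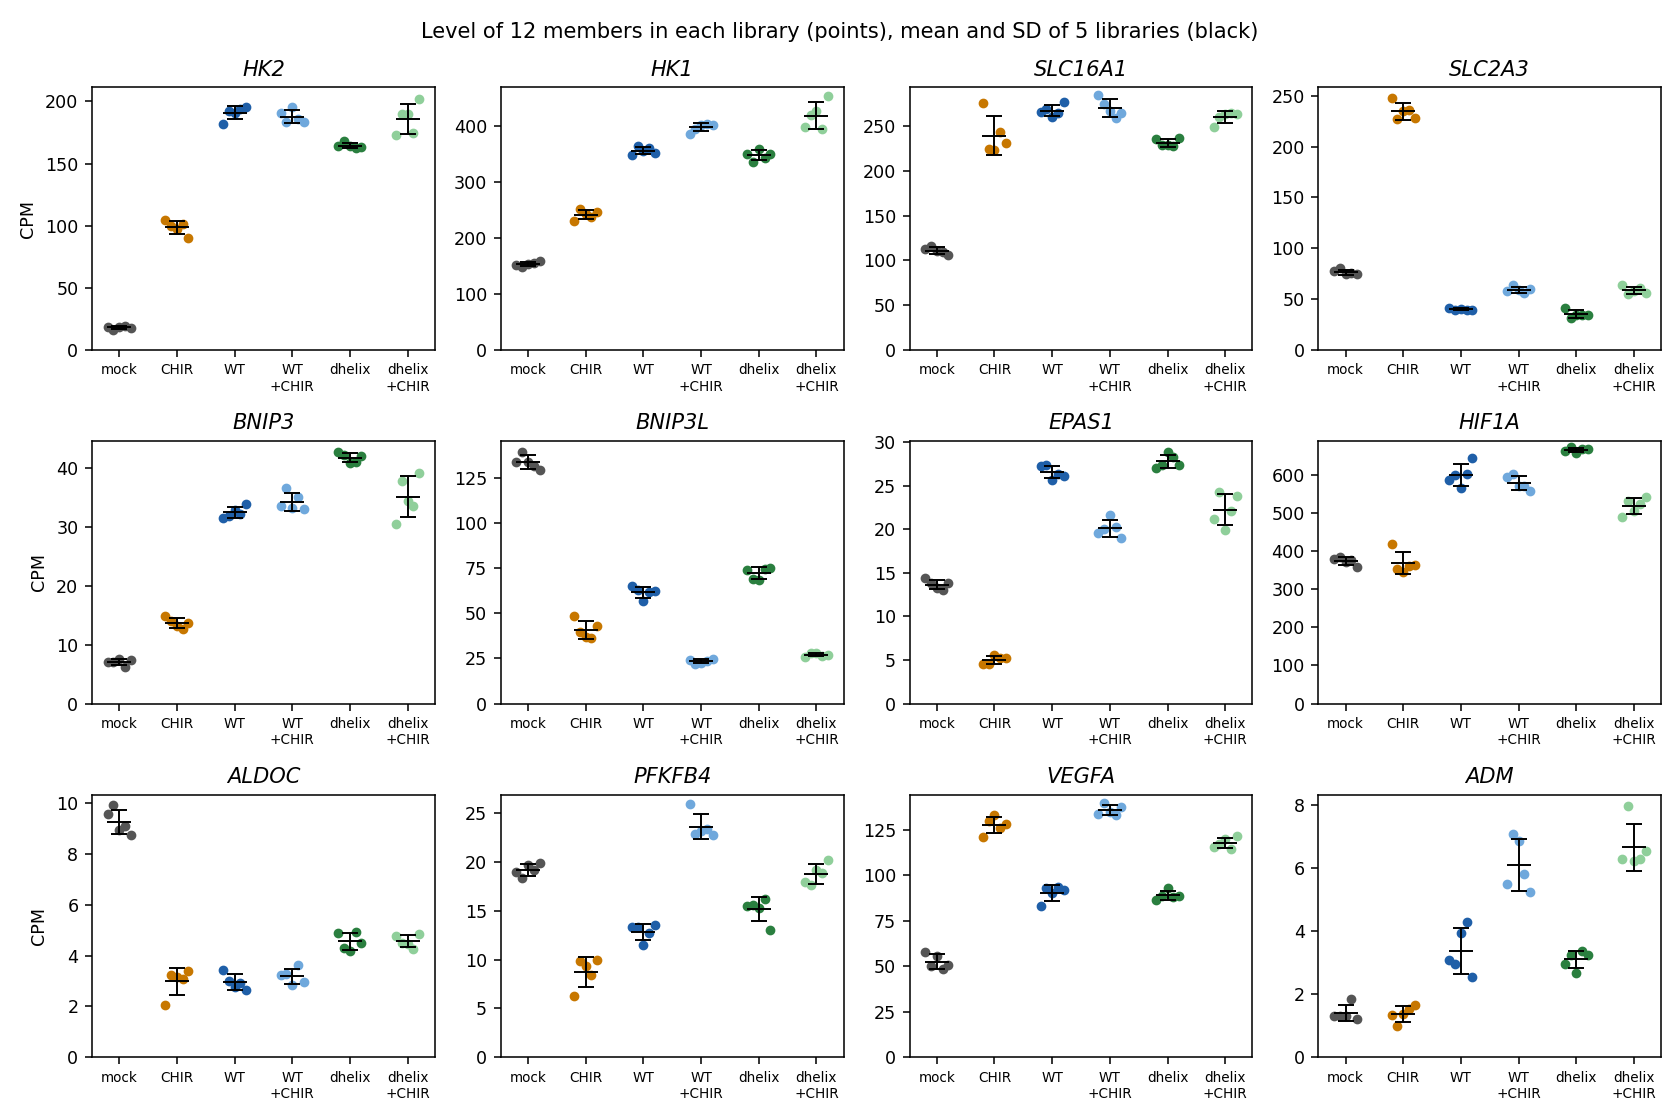
CPM (vertical axes, starting at 0) of 12 genes in each library, with the mean and SD of 5 libraries in black, in the 6 groups. HK2 is at 18.9 CPM or less in mock and at 163 CPM or more in every FOXP2 library, SLC2A3 is high with CHIR alone, and against mock BNIP3 is higher and BNIP3L lower in each of the 5 treated groups.

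The glucose transporter SLC2A3 went up with CHIR and down with FOXP2. SLC2A3 is the high-affinity transporter GLUT3. It was at 77.5, 80.3, 74.2, 75.2 and 74.2 CPM in mock and 248, 228, 235, 236 and 228 with CHIR. It was at 41.6, 39.2, 40.5, 38.7 and 39.6 CPM with WT and 41.6, 31.3, 34.2, 34.2 and 34 with dhelix. None of these ranges overlapped mock. SLC2A3 rose 3.08-fold with CHIR (log2 1.62 ± 0.049, edgeR adjusted p = 1.42e-26) and fell 1.91-fold with WT (-0.94 ± 0.052) and 2.17-fold with dhelix (-1.12 ± 0.052). With both agents it stood at 59.1 ± 3.17 CPM (WT) and 58.6 ± 3.48 (dhelix), below mock, which was 3.98-fold and 4.0-fold below CHIR alone. SLC2A14, a near-identical copy named here after its values were seen, held 2.96% of the SLC2A3 count in mock and 3.14% with CHIR, so some reads could belong to either. SLC2A1, the basal transporter GLUT1, fell with CHIR (-0.29 ± 0.064), was at 0.092 ± 0.063 with WT (0.10, adjusted p = 0.0105, without the 3 libraries that stood apart) and rose with dhelix (0.17 ± 0.062). Per kilobase SLC2A3 was 32.4% of the pair in mock, 64.4% with CHIR and 19% with WT.

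The lactate transporter SLC16A1 (MCT1) rose about 2-fold with each treatment. It was at 113, 116, 110.1, 109.6 and 106 CPM in mock, 276, 224, 224, 244 and 231 with CHIR, and 268 ± 6.44 and 232 ± 4.33 with WT and dhelix. Its log2 changes were 1.11 ± 0.041, 1.27 ± 0.041 and 1.06 ± 0.041. With both agents it stood at 270.0 ± 10.1 and 261 ± 6.48 CPM. SLC16A3 (MCT4), the HIF-induced lactate exporter, was low, at 6.56, 7.74, 6.07, 6.55 and 7.79 CPM in mock. It was at 9.59, 11, 11.7, 12 and 11.1 CPM with WT and 16.6, 18.5, 19.4, 18.5 and 16.9 with dhelix, and no library of the 3 groups overlapped another group. It fell with CHIR (-0.64 ± 0.11) and rose with WT (0.69 ± 0.090) and dhelix (1.39 ± 0.084).

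The PFKFB genes make the enzymes that set fructose 2,6-bisphosphate, the activator of phosphofructokinase, and each of the 3 had its own pattern. PFKFB3, the form with the highest ratio of kinase to phosphatase activity, rose with WT (1.06 ± 0.041, edgeR adjusted p = 1.86e-23) and dhelix (0.92 ± 0.041), from 44.7 ± 1.65 CPM to 93.4 ± 2.69 and 84.7 ± 2.19, and was at 0.040 ± 0.043 with CHIR. PFKFB2 rose with CHIR (0.63 ± 0.045) and fell with WT (-0.69 ± 0.047) and dhelix (-0.60 ± 0.046). PFKFB4, a HIF target, was at 19, 18.4, 19.7, 19.2 and 20 CPM in mock, 6.27, 9.89, 9.38, 8.40 and 9.94 with CHIR and 13.3, 13.3, 11.5, 12.7 and 13.5 with WT. It fell with CHIR (-1.14 ± 0.080), WT (-0.58 ± 0.074) and dhelix (-0.34 ± 0.071). With WT and CHIR together it was at 25.9, 22.9, 23.2, 23.4 and 22.8 CPM, above every mock library, and with dhelix and CHIR at 18, 17.7, 19.2, 18.9 and 20.3, which overlapped mock.

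The pyruvate dehydrogenase kinases, which keep pyruvate out of mitochondrial oxidation, went opposite ways. PDK1, a HIF-induced form, rose from 9.77 ± 1.01 CPM to 18.7 ± 2.86 with CHIR, 18.3 ± 1.09 with WT and 19.2 ± 0.665 with dhelix (log2 0.94 ± 0.076, 0.91 ± 0.075 and 0.98 ± 0.073). PDK3 fell from 13.5 ± 0.926 CPM to 9.15 ± 0.466, 4.93 ± 0.257 and 4.93 ± 0.777 (log2 -0.56 ± 0.078, -1.46 ± 0.084 and -1.45 ± 0.080). No library of a treated group overlapped mock for either gene.

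Among the HIF-induced genes outside glycolysis, the paralogues BNIP3 and BNIP3L moved against each other relative to mock. Both encode receptors that mark mitochondria for removal. BNIP3 was at 7.05, 7.0, 7.62, 6.14 and 7.33 CPM in mock and 14.9, 14.1, 13.2, 12.6 and 13.7 with CHIR. It was at 31.5, 31.9, 33, 32.2 and 33.8 CPM with WT and 42.8, 42.2, 40.9, 41 and 42.1 with dhelix, and the 4 groups did not overlap. BNIP3 rose 1.94-fold with CHIR (log2 0.96 ± 0.071, edgeR adjusted p = 8.2e-15), 4.59-fold with WT (2.20 ± 0.064, adjusted p = 1.67e-27) and 5.90-fold with dhelix (2.56 ± 0.062, adjusted p = 7.15e-30). BNIP3L was at 134, 139.8, 134, 132 and 129 CPM in mock and 48.6, 39.6, 36.7, 36.5 and 43.3 with CHIR. It was at 65, 63.3, 56.8, 61.9 and 62.3 CPM with WT and 74.3, 69.2, 68.8, 74.5 and 75.1 with dhelix. BNIP3L fell 3.27-fold with CHIR (-1.71 ± 0.053), 2.16-fold with WT (-1.11 ± 0.051) and 1.85-fold with dhelix (-0.89 ± 0.050), and was lowest with both agents, at 23.4 ± 1.10 and 27.2 ± 1.01 CPM. Per kilobase BNIP3 was 4.07% ± 0.33 (SD) of the pair in mock, 29.8% ± 1.4 with WT and 54.3% ± 2.0 with WT and CHIR. Pseudogenes named after BNIP3 held 0.451% of its count in mock, 4.08% with CHIR, 2.26% with WT, 1.93% with dhelix, and 8.80% and 8.10% with both agents, and reads could belong to either.

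**Figure D4:**
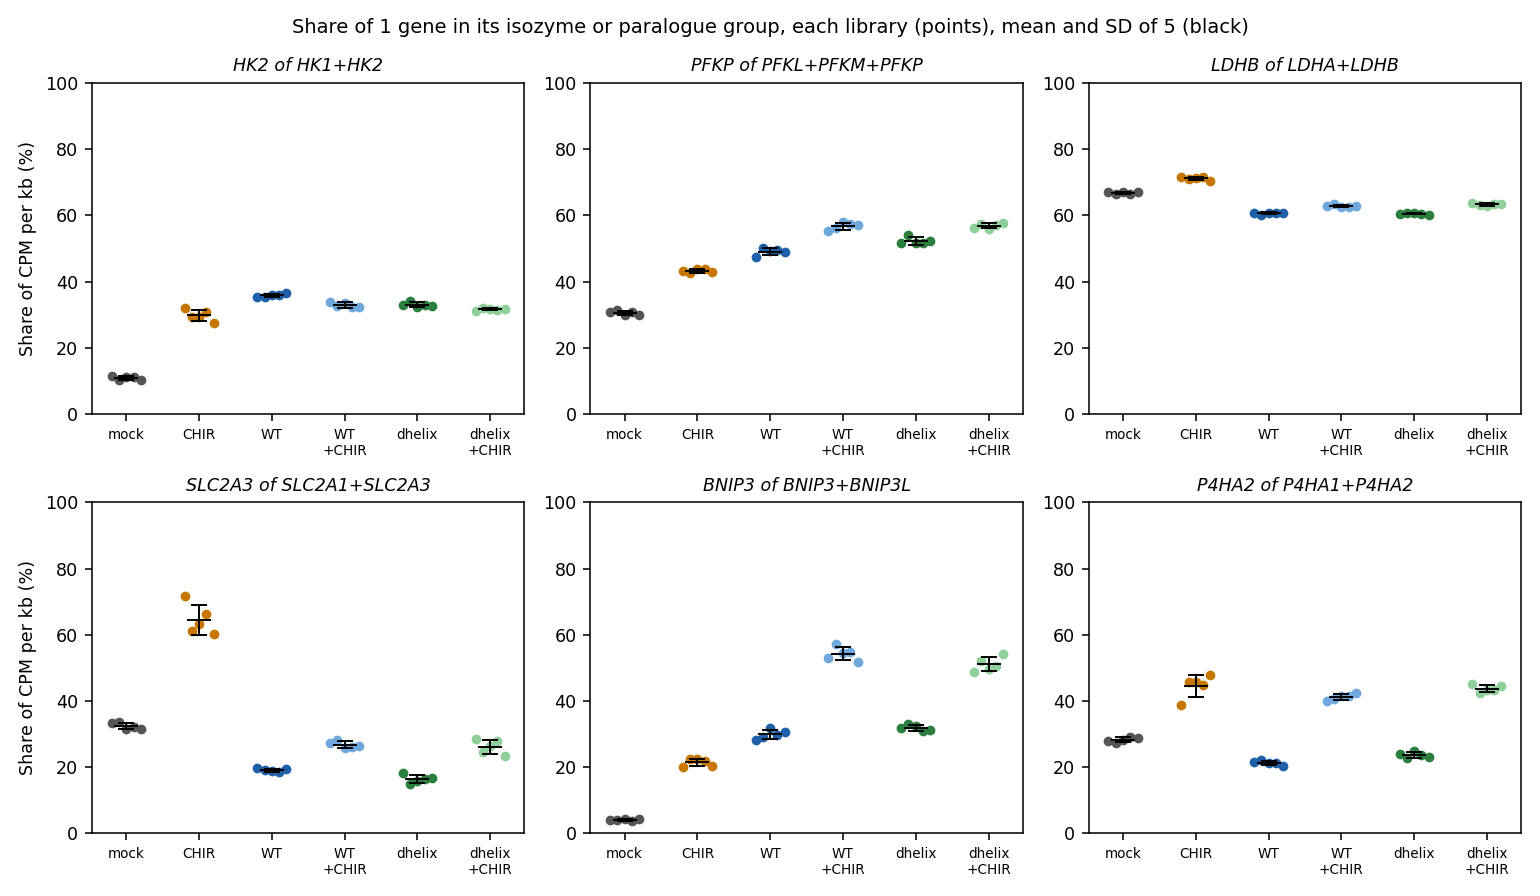
Share in percent (vertical axes, 0 to 100) of 1 gene in the summed CPM per kilobase of its isozyme or paralogue group, 1 point per library, with the mean and SD of 5 libraries in black. HK2, PFKP and BNIP3 take a larger share in every treated group than in mock, SLC2A3 a larger share with CHIR alone and a smaller one in the 4 FOXP2 groups, and P4HA2 a larger share in the 3 groups with CHIR.

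The secreted factors rose with FOXP2. VEGFA, which drives blood vessel growth, was at 58.2, 50.1, 55.9, 48.5 and 50.5 CPM in mock and 121, 129.7, 133, 126 and 128 with CHIR. It rose with CHIR (1.28 ± 0.042, edgeR adjusted p = 1.58e-25), WT (0.78 ± 0.042) and dhelix (0.75 ± 0.042), and reached 90.5 ± 4.37 and 89.1 ± 2.46 CPM with FOXP2. ADM, the vasodilator peptide adrenomedullin, was low, at 1.31, 1.32, 1.32, 1.85 and 1.21 CPM in mock and 1.34, 0.995, 1.37, 1.52 and 1.67 with CHIR, which overlapped. With WT it was at 3.07, 2.94, 3.94, 4.30 and 2.55 CPM and with dhelix at 2.95, 3.26, 2.67, 3.37 and 3.25, all above mock (log2 1.26 ± 0.15 and 1.15 ± 0.15). With both agents it stood at 5.48, 7.06, 6.85, 5.80 and 5.25 CPM (WT) and 6.29, 7.97, 6.21, 6.29 and 6.53 (dhelix), above every other library.

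The oxygen sensors and other hydroxylases differed within families. EGLN1, the main enzyme that marks HIF alpha for destruction, rose from 35.8 ± 2.03 CPM to 70.6 ± 4.10 with CHIR, 53.5 ± 1.34 with WT and 56.4 ± 2.89 with dhelix (log2 0.98 ± 0.047, 0.58 ± 0.048 and 0.66 ± 0.047). EGLN3 was at 3.41 ± 0.328 CPM in mock, was at -0.029 ± 0.14 with CHIR, and fell with WT (-0.57 ± 0.14) and dhelix (-0.43 ± 0.13). P4HA1, a collagen prolyl hydroxylase subunit, fell from 105 ± 4.44 to 55 ± 5.04 CPM with CHIR (-0.94 ± 0.044) and less with WT (-0.26 ± 0.042), and was at -0.019 ± 0.042 with dhelix. P4HA2 fell with WT (-0.80 ± 0.040) and dhelix (-0.37 ± 0.038), from 114 ± 2.34 CPM to 65.6 ± 1.35 and 88.4 ± 3.97. With CHIR P4HA2 was at 0.084 ± 0.039, just inside the threshold. KDM3A, a histone demethylase, fell with CHIR (-0.57 ± 0.042) and was at 0.049 ± 0.041 with WT and -0.022 ± 0.040 with dhelix. NDRG1, a stress-induced gene, rose with CHIR (0.40 ± 0.050) and dhelix (0.27 ± 0.050) and by 0.11 ± 0.050 with WT, a call lost without the 3 libraries that stood apart. ANKRD37 rose with WT (0.55 ± 0.14) and dhelix (0.77 ± 0.13) and was at -0.045 ± 0.15 with CHIR.

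Both HIF alpha subunits of the set, HIF1A and EPAS1, went up with FOXP2. HIF1A was at 379, 384, 373, 376 and 357 CPM in mock and 587, 599, 567, 603 and 645 with WT. With dhelix it was at 662, 672, 656, 669 and 667 CPM, and neither range overlapped mock. HIF1A rose by 0.68 ± 0.039 with WT (edgeR adjusted p = 2.72e-18) and 0.83 ± 0.039 with dhelix, and was at -0.020 ± 0.039 with CHIR, or -0.11 (adjusted p = 0.00135) without the 3 libraries that stood apart. EPAS1, which encodes HIF-2 alpha, was at 14.4, 13.8, 13.2, 13 and 13.8 CPM in mock and 4.52, 4.54, 5.52, 5.24 and 5.18 with CHIR. It was at 27.3, 27.4, 25.7, 26.4 and 26.2 CPM with WT and 27.1, 27.4, 28.9, 28.3 and 27.4 with dhelix. EPAS1 fell 2.72-fold with CHIR (-1.45 ± 0.069, edgeR adjusted p = 1.6e-20) and rose with WT (0.96 ± 0.054) and dhelix (1.03 ± 0.053). In CHIR-treated cells FOXP2 raised EPAS1 from this low level, 4.01-fold with WT and 4.44-fold with dhelix, to 20.1 ± 0.959 and 22.3 ± 1.83 CPM. Per kilobase HIF1A stood at 72.5 CPM in mock and EPAS1 at 1.87.

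In cells already given CHIR, FOXP2 again raised more of the 39 genes than it lowered. Against CHIR alone 24 rose and 10 fell with WT, where 38.2% of all genes rose and 40.2% fell. With dhelix 27 rose and 10 fell, against 37% and 38.9%. Of the enzymes, 9 rose and 5 fell with WT, with a median of 0.14, and 11 rose and 4 fell with dhelix, with a median of 0.28. Rises and falls of at least 2-fold numbered 5 and 2 with WT (13.8% and 12% of all genes) and 6 and 1 with dhelix (12.7% and 9.22%). No enzyme was among them; HK2 rose by 0.93 ± 0.040 with WT and 0.92 ± 0.040 with dhelix. The largest rises were those of ADM (2.14 ± 0.14 and 2.27 ± 0.14), EPAS1 (2.00 ± 0.066 and 2.15 ± 0.066), SLC16A3 (1.49 ± 0.098 and 1.89 ± 0.096), PFKFB4 (1.44 ± 0.079 and 1.10 ± 0.081) and BNIP3 (1.32 ± 0.059 and 1.35 ± 0.059).

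The change with CHIR was another one in cells that carried FOXP2 than in mock cells: among the enzymes more genes fell than rose. In WT FOXP2 cells CHIR raised 14 of the 39 genes and lowered 13, where 34.8% of all genes rose and 30.2% fell, and in dhelix cells it raised 16 and lowered 13, where 34.1% rose and 29.1% fell. Of the enzymes 4 rose and 9 fell with CHIR in WT cells, and 5 rose and 8 fell in dhelix cells. LDHA fell by -0.51 ± 0.030 in WT cells and -0.42 ± 0.030 in dhelix cells, from the higher level seen with FOXP2. ADM rose by 0.87 ± 0.12 and 1.10 ± 0.12, and P4HA2 by 0.91 ± 0.040 and 0.81 ± 0.038. BNIP3L fell by -1.40 ± 0.057 and -1.41 ± 0.056. ADM in dhelix cells was the only gene to rise 2-fold, and BNIP3L the only one to fall 2-fold, where 9.76% (WT cells) and 8.55% (dhelix cells) of all genes rose 2-fold and 3.35% and 3.29% fell 2-fold. FOXP2 RNA itself was higher in these groups with CHIR than without, as given above, and its part in these values was not tested.

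The interaction, the change with CHIR in cells with a construct minus that in mock cells, was tested for each gene. With WT FOXP2 it was lower for 21 of the 39 genes and higher for 13, where 34.9% of all genes were lower and 30.7% higher. Of the enzymes 13 were lower and 1, ALDOC, was higher. Of the HIF-induced genes 7 were higher and 3 lower. The smallest p-values on the lower side were those of HK2 (-2.48 ± 0.061, edgeR adjusted p = 2.75e-28), SLC16A1 (-1.10 ± 0.057) and LDHB (-0.72 ± 0.040). HK2 and SLC16A1 each rose with CHIR alone and with FOXP2 alone, and with CHIR in WT cells they were at -0.025 ± 0.039 and 0.012 ± 0.040. On the higher side were PFKFB4 (2.01 ± 0.11, adjusted p = 2.32e-18), P4HA2 (0.82 ± 0.055) and ALDOC (1.76 ± 0.14). PFKFB4 fell with either agent alone and was above mock with both. With dhelix 19 genes were lower and 11 higher, where 33.7% and 31.2% of all genes were. The leading genes were HK2 (-2.28 ± 0.061), SLC16A1 (-0.94 ± 0.057) and EGLN1 (-1.02 ± 0.066) on the lower side and P4HA2 (0.73 ± 0.054), PFKFB4 (1.45 ± 0.11) and EPAS1 (1.12 ± 0.086) on the higher.

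**Figure D5:**
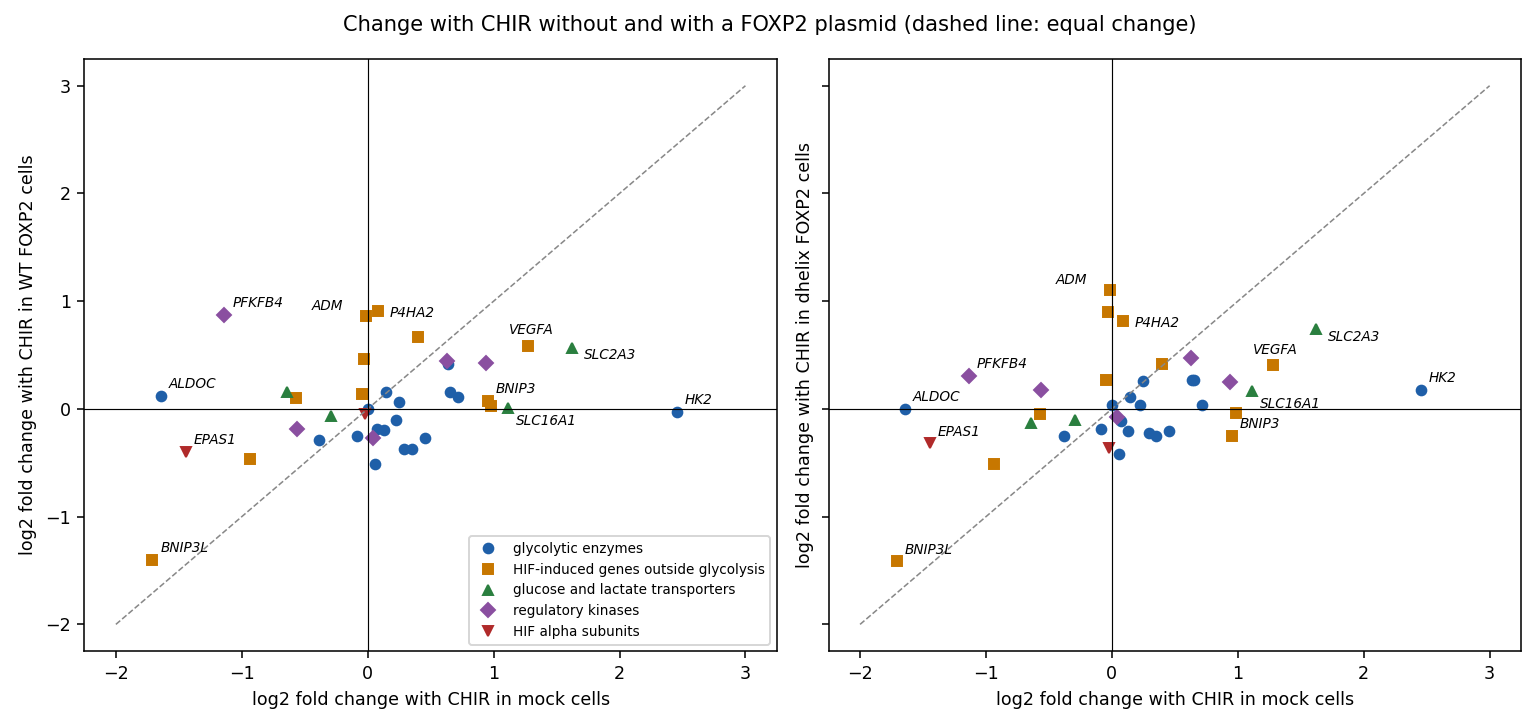
Log2 fold change with CHIR in WT FOXP2 cells (left) and dhelix FOXP2 cells (right) against that in mock cells (horizontal axes), 1 point per gene, marked by role; the dashed line marks an equal change. HK2 lies far to the right at about 0 on the vertical axis, most enzymes lie below the dashed line, and PFKFB4, ADM and P4HA2 lie above it; both axes carry measurement error, and the 2 panels share their horizontal values.

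The helix deletion made small differences in the 39 genes. Of the 39 genes 13 were higher with dhelix than with WT FOXP2 and 6 lower, where 16.9% of all genes were higher and 18.7% lower, and none differed 2-fold, where 1.87% of all genes were 2-fold higher and 0.698% 2-fold lower. The dhelix cells held less FOXP2 RNA, 5319 against 7076 CPM, and its part in these differences was not tested. SLC16A3 was higher with dhelix by 0.70 ± 0.078 (edgeR adjusted p = 7.25e-09), ALDOC by 0.64 ± 0.096, P4HA2 by 0.43 ± 0.039 and BNIP3 by 0.36 ± 0.051. HK2 was lower by -0.22 ± 0.039 and SLC16A1 by -0.21 ± 0.040. With CHIR, 16 genes were higher with dhelix and 4 lower, where 16.6% and 13.9% of all genes were. Again none differed 2-fold, where 1.53% of all genes were 2-fold higher and 0.628% 2-fold lower. The largest were EGLN3 (0.58 ± 0.13), ALDOC (0.52 ± 0.10) and SLC16A3 (0.40 ± 0.081), all higher with dhelix, while the PFKFB4 value was -0.33 ± 0.071. The change with CHIR differed between the constructs for 5 genes on each side, where 8.93% of all genes were higher and 5.29% lower. PFKFB4 (-0.57 ± 0.10, adjusted p = 0.000194), HIF1A (-0.31 ± 0.055) and BNIP3 (-0.33 ± 0.074) led the lower side. HK2 (0.20 ± 0.055), PFKFB3 (0.19 ± 0.056) and LDHB (0.12 ± 0.040) led the higher side, where the count was 0 in place of 5 without any 1 of WT replicate 5, WT with CHIR replicate 2, dhelix replicate 4 or dhelix with CHIR replicate 2, and 1 to 3 without any 1 of 12 other libraries of these groups.

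Other genes of the same pathways gave a wider view, to be read against the shares of all tested genes: 38.8% rose and 35.3% fell with CHIR, 39.9% and 41.6% with WT, and 39.6% and 40.9% with dhelix. Of 16 citric acid cycle genes 13 rose with CHIR and the other 3 did not pass, 14 rose and 1 fell with WT, and 15 rose and 1 fell with dhelix. IDH3A, a subunit of isocitrate dehydrogenase, rose by 0.72 ± 0.048, 1.26 ± 0.047 and 1.27 ± 0.047. Of 26 further glycolysis and pyruvate genes tested, 11 rose and 11 fell with CHIR, and 11 rose and 12 fell with WT. HKDC1, a hexokinase-like gene, rose by 2.92 ± 0.17 and 3.57 ± 0.15. The glucose transporter SLC2A12 fell by -4.71 ± 0.091 and -6.12 ± 0.10, and PDK4, another pyruvate dehydrogenase kinase, by -1.77 ± 0.23 and -3.37 ± 0.29. Of 32 further described HIF-induced genes tested, 12 rose and 17 fell with CHIR, 12 rose and 17 fell with WT, and 13 rose and 18 fell with dhelix, with medians of -0.36, -0.33 and -0.30. STC1, the hormone stanniocalcin, fell by -4.24 ± 0.12 with CHIR, and LOX, lysyl oxidase, by -2.31 ± 0.058. With WT, HMOX1, heme oxygenase, rose by 2.38 ± 0.064 and the cyclin CCNG2 fell by -2.39 ± 0.063. Of 9 HIF pathway components 1 rose and 5 fell with CHIR, 2 rose and 4 fell with WT, and 2 rose and 6 fell with dhelix. Their log2 values ran from -3.58 to 0.31 with CHIR, -1.86 to 1.08 with WT and -1.70 to 3.84 with dhelix. For dhelix against WT FOXP2 they ran from -0.34 to 2.76. There 1 of the 9 was higher with dhelix, by more than 2-fold, and 5 were lower, none of them 2-fold. Of all tested genes 16.9% were higher and 18.7% lower, and 1.87% were at least 2-fold higher. ARNT, the HIF beta subunit, fell by -0.82 ± 0.039 with WT and its paralogue ARNT2 by -1.86 ± 0.058. Of 7 pentose phosphate genes 4 rose and 2 fell both with CHIR and with WT. The counts of the further glycolysis genes, up and down, lay near the shares of all genes.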

How the data were processed

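RNA was measured in 30 U2OS cultures by stranded, paired-end mRNA sequencing, per the labels' protocols. The table holds raw whole-number counts per gene, as the authors deposited them, with 1 column per library and no normalisation. Per the submitters' processing notes, STAR 2.6.1a, featureCounts, Subread, DESeq2 and the build hg19 were used; the gene annotation's release, the counting's strand setting and the counted unit (reads or fragments) were not given in the sources used here. Where strand was not used, a gene and an overlapping antisense gene cannot be told apart, and copies such as SLC2A14 and BNIP3 pseudogenes can share reads. Groups came from sample titles; 1 WT FOXP2 with CHIR genotype label lacks "WT".

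Counts were filtered by edgeR's default over the 6 groups (18485 of 57373 genes kept), scaled by trimmed means of M values, then fitted with edgeR 4.0.16 in R 4.3.3 (robust quasi-likelihood, a mean per group, all 30 libraries in 1 fit). A total of 9 pairs of groups and 3 interactions were tested, with p-values adjusted by Benjamini-Hochberg over the genes kept and called below 0.05. The step was tested on simulated data in which a small part of the genes changed, in the WT FOXP2 libraries only. That differs from these data, where most genes were called against mock, so the simulation does not show the error rate here. A standard error is the log2 fold change over the square root of its F statistic. CPM per kilobase uses the joined length of all annotated exons of a gene, from GENCODE on GRCh38, so no hg19 coordinates are given. Promoters are RefSeq's on GRCh38.p14. No replicates agreed within sampling noise (lowest chi-square per gene 1.39). Reads carry no molecular identifiers.

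The 40 genes, the other lists and the tests were chosen with earlier results of these data known, so a gene list's count is no independent evidence. Any of the 40 genes could be named, for interactions at most 3 a direction by smallest p, and from other lists at most 4 a comparison by largest change. The alternatives were DESeq2 1.42.0, its size factors in edgeR, library sizes without FOXP2, the compared groups alone, no filter, a filter on mean CPM (1 or more), a replicate block, the fit without the 3 libraries that stood apart, and each library left out in turn.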

Additional observations from a re-analysis of the deposited data

Results flagged for a closer look

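Among 234 sets of 5 libraries (39 genes in 6 groups), 23 held a library whose gap to its nearest neighbour was large for the range of the set; chance would give about 1 in 20. Of these, 8 came from CHIR replicate 1, a library that stood apart over all genes. It was low in GPI (254 CPM), ALDOC (2.05), GAPDH (5401) and ENO2 (213), and high in PFKFB2 (118 CPM), KDM3A (52.8), P4HA1 (63.8) and HIF1A (419). In the other CHIR libraries GAPDH lay between 7043 and 7615 CPM and HIF1A between 346 and 364. Dhelix with CHIR gave 4: PFKL (97.3 CPM) and ALDOA (859) low in replicate 4, ADM (7.97) high in replicate 2 and PGAM1 (133) low in replicate 5. Mock gave 4: PFKM (92.8 CPM) low in replicate 2, PGAM1 (91.0) low and ADM (1.85) high in replicate 4, and EGLN3 (2.84) low in replicate 3. Dhelix gave 3: HK2 (168 CPM) high in replicate 2, PDK3 (6.29) high in replicate 1 and PFKFB4 (13.0) low in replicate 5. WT FOXP2 with CHIR gave 3: PGK1 (642 CPM) low in replicate 2, PFKFB4 (25.9) high in replicate 1 and EGLN1 (51.0) low in replicate 4. WT FOXP2 gave 1, VEGFA (83.0 CPM) low in replicate 1.

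The change with CHIR differed between cells with a construct and mock cells, or between the constructs, by an interaction test, and the leading genes of each test are these. With WT FOXP2 the log2 differences were 2.01 for PFKFB4, 1.76 for ALDOC, 0.82 for P4HA2, -2.48 for HK2, -1.10 for SLC16A1 and -0.72 for LDHB. With dhelix FOXP2 they were 1.45 for PFKFB4, 1.12 for EPAS1, 0.73 for P4HA2, -2.28 for HK2, -1.02 for EGLN1 and -0.94 for SLC16A1. Between the constructs they were smaller: 0.20 for HK2, 0.19 for PFKFB3, 0.12 for LDHB, -0.31 for HIF1A, -0.57 for PFKFB4 and -0.33 for BNIP3. The constructs also differed in FOXP2 RNA, whose part was not tested.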

How the results depend on the processing

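None of the 468 log2 values of the 39 genes changed sign while past the threshold in the alternatives run. Of 344 calls, 37 were lost in at least 1 alternative, and none of the 163 calls of at least 0.5 on the log2 scale (a size chosen after the values were seen) was among them. The largest call lost was EGLN3 in the interaction of WT FOXP2 with CHIR (0.49), which missed the threshold without WT FOXP2 replicate 2 (0.40, edgeR adjusted p = 0.0659) or WT FOXP2 with CHIR replicate 5 (0.43, edgeR adjusted p = 0.0568). Most counts of genes that rose or fell stayed within 1.5 times. Without a filter on low counts, genes lower with dhelix than WT FOXP2 numbered 3 in place of 6, and those higher with dhelix in CHIR-treated cells 9 in place of 16. Rises of at least 2-fold with CHIR, again counted with CA9, numbered 1 in place of 0 in WT FOXP2 cells and 2 in place of 1 in dhelix cells. In dhelix cells, with the filter kept, leaving out libraries gave 0 to 1, with 0 without dhelix with CHIR replicate 2. The difference between the constructs in the change with CHIR was the least stable. Its higher side numbered 0 without a filter, 2 with a mean of at least 1 CPM, 3 with FOXP2 left out of library sizes and 0 to 7 with 1 library left out. Its lower side numbered 8 with a mean of at least 1 CPM, 9 with the compared groups alone and 8 without the 3 libraries that stood apart. The causes were not tested.

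The labels give the groups the same replicate numbers, and no strong pairing by number was seen. Deviations of same-numbered libraries correlated at a median r of 0.0109 over 75 pairs (-0.163 to 0.253), 8 of them over 0.1. For different numbers the median was -0.000227 over 300 pairs (-0.248 to 0.277), 14 of them over 0.1. Of the 30 libraries, 9 correlated best with their own number. A weak pairing could not be told from none. A replicate block changed 2 of the 468 results. P4HA2 with CHIR against mock was no longer past the threshold (0.083, edgeR adjusted p = 0.0512), so that 20 genes rose with CHIR with the block in place of 21, and SLC16A1 in the difference between the constructs in the change with CHIR passed it (0.16, edgeR adjusted p = 0.0481). ADM, EGLN3 and ANKRD37 were counted at under 10 CPM, where depth limits precision and standard errors were largest. ALDOC was also under 10 CPM in every library, and other genes were in some groups, such as PDK3 in each treated group.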
